A study of Mus musculus with 12 samples.

Results

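The genes described here encode receptors for glutamate, GABA, glycine and acetylcholine, and were measured in serotonin neurons and neighbouring cells of the embryonic mouse neural tube. The list names 44 genes by symbol, of which 22 encode glutamate, 10 GABA, 4 glycine and 8 acetylcholine receptor subunits. Of these, 41 had at least 1 probe set assigned to that symbol alone, and 34 passed the filter on low signal, among 12845 genes tested in all. Grin1, Gabbr2 and Chrm2 are not analysed here. Grik1, Grin2a, Grin2c, Grm8, Gabrg3, Glra3 and Chrm3 did not pass the filter: their 12 probe sets had signals of 3 to 131.

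All embryos carried the ePet-EYFP transgene, in which an enhancer of the serotonin neuron transcription factor gene Pet-1 (Fev) drives yellow fluorescent protein (YFP). At E12.5 the neural tube was cut into rostral and caudal portions, dissociated with trypsin and sorted by fluorescence. The populations were YFP-positive and YFP-negative cells of the rostral portion, written R+ and R-, and of the caudal portion, written C+ and C-, each on 3 Affymetrix Mouse Genome 430 2.0 arrays made from 200000 sorted cells per replicate. The labels call the positive cells serotonin neurons and the negative cells non-serotonin neurons. They call the replicates biological but name no litters or cultures, so the spread behind each p-value may be partly technical.

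Fast excitation in the central nervous system runs through ionotropic glutamate receptors, tetramers of the AMPA, kainate or NMDA class, while metabotropic glutamate receptors act through G proteins. GABA and glycine open pentameric chloride channels. GABA-A receptors are built from alpha, beta and gamma or other subunits and glycine receptors from alpha subunits and Glrb, and GABA also acts on the G protein coupled GABA-B dimer. In embryonic neurons intracellular chloride is high, so GABA and glycine often depolarize. Nicotinic receptors are pentameric cation channels gated by acetylcholine. Serotonin neurons of the adult raphe receive glutamate and GABA input through several of these receptors.

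Several members are neighbours in the genome. In the order of protein-coding genes given by RefSeq for GRCm38.p6, Gabrg1 and Gabra2 are adjacent on chromosome 5, 1 gene separates Gabra2 from Gabra4, and the spans of Gabra4 and Gabrb1 overlap. On chromosome 9, Chrna5 and Chrna3 have overlapping spans and Chrnb4 follows Chrna3. The promoters below are shown because Gria4 had the lowest p of the members in positive against negative cells of both domains, because Gabra4, which passed the filter only through the R+ arrays, and its neighbour Gabrb1 were both higher in R+ than in R- cells, and because Chrna5, Chrna3 and Chrnb4 were all lower in R+ than in R- cells. Chrna5 and Chrnb4 passed the filter only through R- and C- arrays. Each promoter shown is the 250 bases before a RefSeq start on GRCm38.p6, read 5′ to 3′ on the gene's strand, with motif matches in capitals. The windows are Gria4 at chr9:4796235-4796484 (minus strand), Gabra4 at chr5:71658309-71658558 (minus strand), Chrna5 at chr9:54980630-54980879 (plus strand), Chrna3 at chr9:55026563-55026812 (minus strand) and Chrnb4 at chr9:55048545-55048794 (minus strand).
Gria4: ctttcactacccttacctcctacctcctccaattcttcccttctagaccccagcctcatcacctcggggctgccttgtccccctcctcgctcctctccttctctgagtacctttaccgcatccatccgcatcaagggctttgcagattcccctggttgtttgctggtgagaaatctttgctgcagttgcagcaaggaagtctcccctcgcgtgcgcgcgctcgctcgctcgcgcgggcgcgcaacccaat
Gabra4: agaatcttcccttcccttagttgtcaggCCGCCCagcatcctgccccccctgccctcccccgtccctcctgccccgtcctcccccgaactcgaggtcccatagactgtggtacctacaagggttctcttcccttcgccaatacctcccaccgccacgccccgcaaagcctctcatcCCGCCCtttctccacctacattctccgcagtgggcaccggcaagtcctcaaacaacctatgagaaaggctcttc
Chrna5: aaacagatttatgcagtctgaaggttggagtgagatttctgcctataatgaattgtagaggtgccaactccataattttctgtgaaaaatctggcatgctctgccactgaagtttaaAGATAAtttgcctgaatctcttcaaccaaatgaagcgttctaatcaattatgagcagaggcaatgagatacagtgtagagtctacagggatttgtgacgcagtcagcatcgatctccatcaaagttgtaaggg
Chrna3: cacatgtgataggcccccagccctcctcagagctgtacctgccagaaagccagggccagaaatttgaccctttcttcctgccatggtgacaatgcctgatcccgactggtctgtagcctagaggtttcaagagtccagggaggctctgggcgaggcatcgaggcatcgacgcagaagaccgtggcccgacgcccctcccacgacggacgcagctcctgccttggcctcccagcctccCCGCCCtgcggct
Chrnb4: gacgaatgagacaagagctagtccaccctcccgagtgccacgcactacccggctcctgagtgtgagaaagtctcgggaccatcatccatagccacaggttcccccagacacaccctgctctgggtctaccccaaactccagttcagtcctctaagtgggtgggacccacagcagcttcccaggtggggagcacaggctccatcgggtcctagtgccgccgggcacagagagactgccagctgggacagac
The motifs searched on both strands were the TATA box TATAAA, the GC box GGGCGG, the ETS core CCGGAA and the GATA site, written AGATAA or TGATAA. The forms of the GATA site share their last 5 letters, and no other motif searched contains another. The Gabra4 window held 2 matches to GGGCGG and the Chrna3 window 1, the Chrna5 window held 1 match to AGATAA, and the Gria4 and Chrnb4 windows held none of these letters. Another RefSeq start of Chrna5 had 4 matches to GGGCGG in its own window. Promoter windows were found for 34 of the 44 members (42 windows), of which 23 held the GC box, 4 the TATA box, 2 the ETS core and 4 the GATA site. Over all 32851 windows in the table, the shares were 32.74%, 12.37%, 12.03% and 16.6% for the motifs in that order. A match is a string of letters and not a shown binding site.

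Signals are the authors' MAS5 values, scaled so that each array's trimmed mean is 500, with a median of 107 over all values. The 3'/5' ratio of the beta-actin control was 2.64 to 4.39 on the 6 rostral arrays and 4.52 to 7.69 on the 6 caudal arrays, so this measure of RNA integrity differed with domain. All 9 serotonin neuron markers were higher in R+ than in R- and in C+ than in C- cells, with a summed signal of 64042 to 70752 in R+, 4784 to 5177 in R-, 45307 to 50455 in C+ and 2367 to 3364 in C- arrays. The negative arrays also carried markers of other cells. Progenitor and cell cycle markers summed to 10143 to 12151 in R+ against 32135 to 35075 in R- arrays, and to 9513 to 12242 in C+ against 25759 to 29869 in C- arrays. Red blood cell markers summed to 8624 to 15356 in R+ against 44902 to 60048 in R- arrays, and to 4816 to 8552 in C+ against 40591 to 45402 in C- arrays. Glutamate neuron markers summed to 750 to 1136 in R+ against 8057 to 9646 in R- arrays, and to 811 to 1433 in C+ against 10602 to 12146 in C- arrays, with 5 of 5 and 4 of 5 lower in the positive cells. GABA and glycine neuron markers summed to 1690 to 2334 in R+ against 13872 to 17583 in R- arrays, and to 3732 to 4323 in C+ against 13643 to 16658 in C- arrays, with 7 of 7 and 6 of 7 lower. The exception was Gad1, a GABA-synthesizing enzyme, at 1836, 2182 and 2357 in C+ against 2270, 2408 and 2441 in C- arrays (-0.17 ± 0.19, adjusted p = 0.659). Neural crest and early glia markers summed to 8904 to 9658 in R+ against 15941 to 25965 in R- arrays, and to 10247 to 14387 in C+ against 21721 to 25308 in C- arrays. Of the 4 measured, 2 were called lower in the positive cells of each domain. Macrophage markers summed to 893 to 2278 in R+ against 718 to 892 in R- arrays, and to 447 to 647 in C+ against 514 to 775 in C- arrays. Of the 3 measured, 1 was called higher in R+ than in R- cells, where their median difference was -0.14. In C+ against C- cells 1 of the 3 was called lower. The part of these cells in the receptor differences was not tested.

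The receptor genes moved in both directions when YFP-positive cells were set against negative cells of the same domain. In R+ against R- cells, 5 of the 34 tested members were higher and 8 lower at an adjusted p under 0.05, against 4.34% higher and 7.87% lower of all genes tested (12.2% in all). In C+ against C- cells, 6 members were higher and 5 lower, against 5.71% and 7.38% of all genes (13.1% in all). The test is limma's moderated test on log2(signal + 10) over the 12 arrays, two-sided, with Benjamini-Hochberg adjustment over all genes tested, and all differences below are on this scale, which understates changes of dim genes. With the replicate number as a block, the counts were 8 higher and 11 lower of 34 in R+ against R- (8.57% and 12.3% of all genes, 20.8% in all) and 10 higher and 6 lower in C+ against C- cells (10.5% and 12.4%, 22.9% in all). Gria4, Grik2 and Gabrb1 were higher in both positive populations, and Grin3a, Chrna3 and Chrna7 were lower in both. Without R+ replicate 1 the rostral counts were 3 higher and 5 lower, without R- replicate 2 the lower count was 5, and without R- replicate 3 it was 3. Without C+ replicate 2 the caudal higher count was 3, and without C- replicate 3 it was 2. For counts with an array left out, here and below, the share of all genes called is not given. Such changes in count cannot be told apart from changes over all genes. The median difference of the tested members was -0.04 in R+ against R- and -0.08 in C+ against C- cells, and that of all genes -0.01 and -0.04. In these sorted pools, fewer cells of a type and less RNA per cell cannot be told apart.

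**Figure D1:**
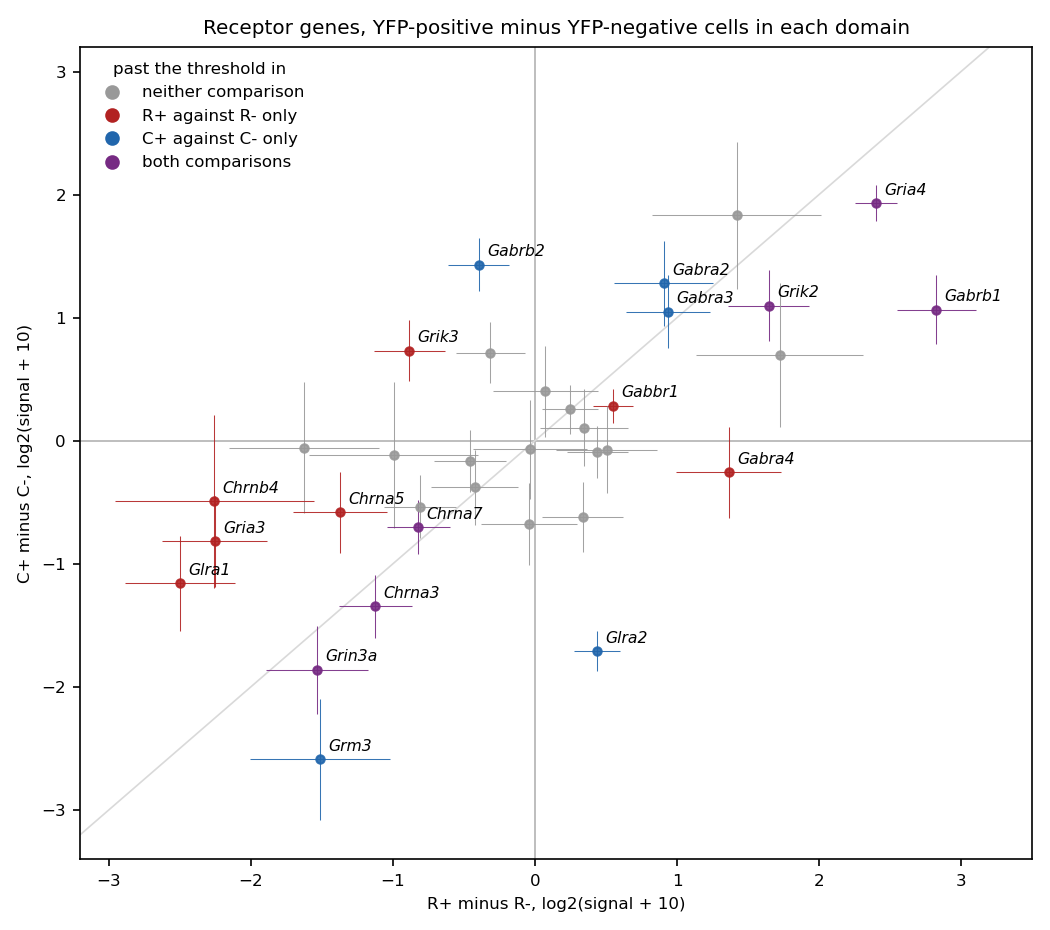
Each point is 1 of the 34 tested receptor genes, with the difference R+ minus R- on the x axis and C+ minus C- on the y axis (log2(signal + 10), bars are standard errors from limma). Gria4, Grik2 and Gabrb1 lie upper right, and Grin3a, Chrna3 and Chrna7 lower left, all called in both comparisons; Gabrb2, Grik3 and Glra2 lie in the quadrants of opposite sign.

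AMPA receptors are assembled from the Gria1 to Gria4 subunits, and Gria2 makes the channel nearly impermeable to calcium. Gria4, whose product gives fast kinetics and is prominent early in development, was the member with the strongest test in R+ against R- cells. Its signal was 4289, 4024 and 3620 in R+ arrays, against 630, 769 and 844 in R- arrays. In the caudal domain it was 3542, 3585 and 3161 in C+ arrays, against 769, 936 and 980 in C- arrays. The groups were far apart in both domains, with a difference of 2.40 ± 0.15 (SE; 5.29-fold, adjusted p = 7.39e-08) in R+ against R- and of 1.93 ± 0.15 (3.81-fold, adjusted p = 3.98e-07) in C+ against C- cells. Another Gria4 probe set gave 3.17 ± 0.29 and 2.58 ± 0.29 in these comparisons, and a dim one gave 0.60 ± 0.48 and 0.21 ± 0.48, neither past the threshold. R+ against C+ cells differed by 0.21 ± 0.15 (adjusted p = 0.423).

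Gria3 went the opposite way in the rostral domain. Its signal was 59, 46 and 16 in R+ arrays, against 157, 347 and 173 in R- arrays, a difference of -2.25 ± 0.37 (adjusted p = 0.000687). It was 219, 190 and 217 in C+ arrays, against 368, 387 and 370 in C- arrays, where the difference of -0.82 ± 0.37 did not pass the test (adjusted p = 0.186) although the groups did not overlap. The R+ arrays were the lowest of all 12, and R+ cells were below C+ cells by -2.23 ± 0.37 (adjusted p = 0.00194). Gria1 had 130, 98 and 160 in R+ arrays, against 217, 212 and 264 in R- arrays, and its difference of -0.81 ± 0.26 was called with the replicate block alone (adjusted p = 0.0538 without it, 0.0144 with it). Gria2 spread widely within every group, from 511 to 900 in R+, 501 to 815 in R-, 754 to 1876 in C+ and 556 to 1389 in C- arrays. Gria2 was lower in R+ than in C+ cells by -0.70, which passed only with the block (SE 0.37, adjusted p = 0.275 without it, SE 0.16, adjusted p = 0.00562 with it). Another Gria2 probe set gave -0.92 ± 0.19 (adjusted p = 0.0174 over all probe sets), and a further one -0.05 ± 0.37.

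**Figure D2:**
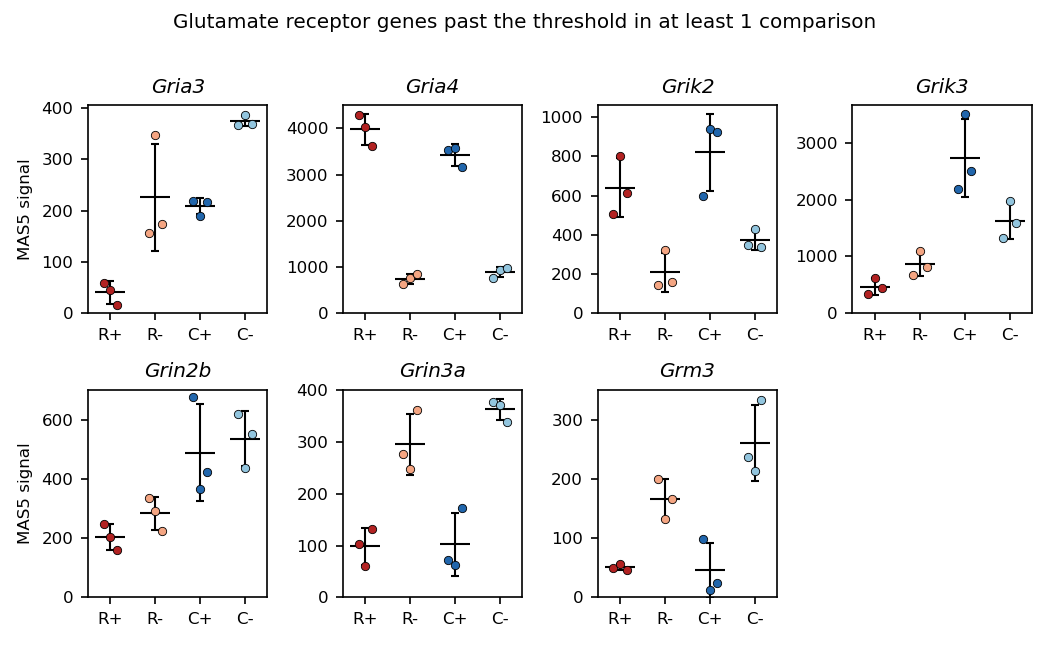
Each panel gives the MAS5 signal (y axis, from 0) of 1 glutamate receptor gene on every array by group, with the mean as a horizontal bar and the SD as an error bar (n = 3 arrays per group). Gria4 and Grik2 are high in R+ and C+ arrays, Grin3a and Grm3 are high in R- and C- arrays, and Grik3 is highest in C+ arrays.

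Kainate receptors contain the Grik1 to Grik3 subunits, which form channels alone, and Grik4 and Grik5, which need them as partners. Grik2 had 507, 803 and 613 in R+ arrays, against 141, 322 and 160 in R- arrays, and 596, 941 and 925 in C+ arrays, against 346, 430 and 340 in C- arrays. The positive cells were above the negative cells on every array in both domains. The difference was 1.65 ± 0.28 (adjusted p = 0.00111) in R+ against R- and 1.10 ± 0.28 (adjusted p = 0.0180) in C+ against C- cells. The caudal call was lost without C- replicate 1 (adjusted p = 0.0559), C+ replicate 2 (0.0812), C+ replicate 3 (0.0694) or C- replicate 3 (0.0692).

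Grik3 was lower in the rostral positive cells and highest in the caudal ones. Its signal was 328, 625 and 449 in R+ arrays, against 675, 1093 and 811 in R- arrays, and 2186, 3500 and 2499 in C+ arrays, against 1319, 1969 and 1592 in C- arrays. No group overlapped another. R+ cells were below R- cells by -0.88 ± 0.25 (adjusted p = 0.0309), a call lost without R+ replicate 1 (adjusted p = 0.146), R- replicate 2 (0.138), R+ replicate 3 (0.0818) or R- replicate 3 (0.0793). C+ against C- cells differed by 0.73 ± 0.25, which passed only with the replicate block (adjusted p = 0.0729 without it, 0.000162 with it). Grik5 was bright on every array, at 1615 to 2345 in R+, 1422 to 1549 in R-, 1208 to 3103 in C+ and 1050 to 2021 in C- arrays, and passed no test; Grik4, at 72 to 174 over all arrays, passed none either.

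NMDA receptors combine an obligatory Grin1 subunit with Grin2 or Grin3 subunits, and Grin3a, a glycine-binding subunit of developing neurons, lowers their calcium permeability. Grin3a had 104, 60 and 132 in R+ arrays, against 277, 248 and 362 in R- arrays. It had 72, 62 and 173 in C+ arrays, against 378, 372 and 339 in C- arrays. All 6 positive arrays were below all 6 negative arrays. The difference was -1.53 ± 0.36 (adjusted p = 0.00990) in R+ against R- cells, a call lost without R+ replicate 2 (adjusted p = 0.0507) or R- replicate 3 (0.0570), and -1.86 ± 0.36 (adjusted p = 0.00233) in C+ against C- cells. Another Grin3a probe set gave -2.69 ± 0.48 and -1.94 ± 0.48, past the threshold in both. That probe set passed the filter only through R- and C- arrays, which favours both differences. Grin2b, the Grin2 subunit typical of embryonic neurons, had 248, 203 and 161 in R+ and 335, 292 and 225 in R- arrays, and 675, 367 and 422 in C+ and 619, 437 and 551 in C- arrays. It overlapped between positive and negative cells of a domain, and the tests there did not pass. Grin2d was at 105 to 290 over all arrays and passed no test.

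Metabotropic receptors of the Grm2 and Grm3 class and of the Grm4, Grm7 and Grm8 class inhibit adenylyl cyclase, and Grm5 activates phospholipase C. Grm3 had 99, 13 and 25 in C+ arrays, against 237, 214 and 335 in C- arrays, a difference of -2.59 ± 0.49 (adjusted p = 0.00216). It had 50, 57 and 47 in R+ arrays, against 200, 133 and 167 in R- arrays, a difference of -1.51 ± 0.49 that was called only with the replicate block (adjusted p = 0.0610 without it, 0.0266 with it). The positive arrays lay below the negative arrays in both domains. Grm3 passed the filter only through R- and C- arrays, which favours both differences. Grm5, at 17 to 33 in R+ and 86 to 129 in R- arrays, differed by -1.63 ± 0.53 (adjusted p = 0.0619, and 0.0354 with the block). Grm4 had 621, 729 and 646 in C+ arrays, against 331, 393 and 492 in C- arrays, a difference of 0.72 ± 0.25 (adjusted p = 0.0731, and 0.0115 with the block). Grm2, Grm7 and the delta receptor Grid1, which binds cerebellins, passed no test between positive and negative cells with either fit.

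Apart from Gria4 and Grik2, the members called higher in positive cells were GABA receptor genes. Of 7 tested GABA-A subunit genes, 2 were higher and 0 lower in R+ against R- cells, and 4 higher and 0 lower in C+ against C- cells; with the replicate block, 4 and 5 were higher and 0 lower. Of all genes tested, 4.34% and 5.71% were higher in these comparisons, and 8.57% and 10.5% with the block. At an unadjusted limma p under 0.05, 6 and 5 were higher and 0 lower, against 9.19% and 10.8% of all genes higher. Gabra4 passed the filter only through R+ arrays, Gabrg1 only through C+ arrays and Gabra5 only through R+ and C+ arrays. This favours higher levels in positive cells in these counts. Beta subunits carry part of the GABA binding site. Gabrb1 had 1625, 1357 and 1075 in R+ arrays, against 194, 220 and 135 in R- arrays, the largest difference upward among the members in that comparison, at 2.83 ± 0.28 (7.09-fold, adjusted p = 6e-06). It had 429, 395 and 273 in C+ arrays, against 173, 236 and 112 in C- arrays, a difference of 1.07 ± 0.28 (adjusted p = 0.0189). The rostral groups were far apart and the caudal groups closer. The caudal call was lost without C+ replicate 1 (adjusted p = 0.0534), C+ replicate 2 (0.0739) or C- replicate 3 (0.0973), and another Gabrb1 probe set gave 2.57 ± 0.44 in the rostral and -0.07 ± 0.44 in the caudal comparison. That probe set passed the filter only through the R+ arrays, which favours the rostral difference. A further Gabrb1 probe set gave 1.27 ± 0.48 in the rostral and 0.13 ± 0.48 in the caudal comparison, neither past the threshold.

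Gabrb2 was higher in the caudal positive cells. It had 1515, 1616 and 1660 in C+ arrays, against 697, 577 and 498 in C- arrays, a difference of 1.43 ± 0.21 (adjusted p = 0.000290). Its other 3 probe sets gave 1.11 ± 0.42, 0.94 ± 0.39 and 1.27 ± 0.72, in the same direction and short of the threshold. In the rostral domain it had 1007, 805 and 698 in R+ arrays, against 1558, 979 and 854 in R- arrays; the groups overlapped and the difference of -0.40 ± 0.21 did not pass (adjusted p = 0.298).

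The alpha subunits set the kinetics and drug sensitivity of the GABA-A receptor. Gabra4 passed the filter only through the R+ arrays, which favours a difference there. It had 179, 198 and 182 in R+ arrays, against 47, 98 and 62 in R- arrays, and 55, 65 and 82 in C+ and 65, 88 and 94 in C- arrays. The R+ arrays stood above all others, and the difference to R- was 1.36 ± 0.37 (adjusted p = 0.0251). That call was lost without R+ replicate 1 (adjusted p = 0.0769), R- replicate 1 (0.0853), R+ replicate 2 (0.0917), R+ replicate 3 (0.0734) or R- replicate 3 (0.0774). Gabra2 had 246, 206 and 174 in C+ arrays, against 79, 115 and 54 in C- arrays, a difference of 1.28 ± 0.35 (adjusted p = 0.0236). It had 111, 185 and 159 in R+ arrays, against 65, 95 and 67 in R- arrays, where the difference of 0.91 ± 0.35 did not pass (adjusted p = 0.118). Neither domain's groups overlapped, but the caudal call was lost without C+ replicate 1 (adjusted p = 0.0795), C- replicate 1 (0.0576), C+ replicate 2 (0.0728) or C- replicate 3 (0.0983), and another probe set gave 0.25 ± 0.48.

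Gabra3, an alpha subunit that is common in the embryonic brain and in monoamine neurons, had 217, 207 and 352 in C+ arrays, against 118, 117 and 114 in C- arrays. The difference was 1.05 ± 0.30 (adjusted p = 0.0299), and was lost without C- replicate 1 (adjusted p = 0.0685), C- replicate 2 (0.0654), C+ replicate 3 (0.155) or C- replicate 3 (0.0794). In R+ arrays it had 211, 186 and 221, against 78, 152 and 90 in R- arrays, a difference of 0.94 ± 0.30 (adjusted p = 0.0547, and 0.0320 with the replicate block). The 6 positive arrays were all above the 6 negative arrays. Gabra5 and Gabrg1 were dim, at most 175 and 162 on any array, and were called with the block alone. In that fit Gabra5 differed by 1.83 (SE with the block 0.56, adjusted p = 0.0299) in C+ against C- cells. Gabrg1 differed by 1.72 (SE with the block 0.56, adjusted p = 0.0415) in R+ against R- cells. Gabrg1 passed the filter only through the C+ arrays, and Gabra5 only through R+ and C+ arrays.

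Gabbr1, the GABA-binding member of the GABA-B dimer, was bright on every array. It had 10348, 8987 and 8804 in R+ arrays, against 7019, 5715 and 6483 in R- arrays, a difference of 0.55 ± 0.14 (adjusted p = 0.0162). The rise was small but the groups did not overlap. The call was lost without R+ replicate 1 (adjusted p = 0.0798) or R- replicate 2 (0.0746), and with median scaling (0.133). Other Gabbr1 probe sets gave 0.50 ± 0.31 and 0.35 ± 0.22, in the same direction and short of the threshold. In the caudal domain the 9242, 7247 and 6992 of the C+ arrays overlapped the 7150, 5617 and 6446 of the C- arrays, with a difference of 0.28 ± 0.14 (adjusted p = 0.230, and 0.0241 with the block).

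**Figure D3:**
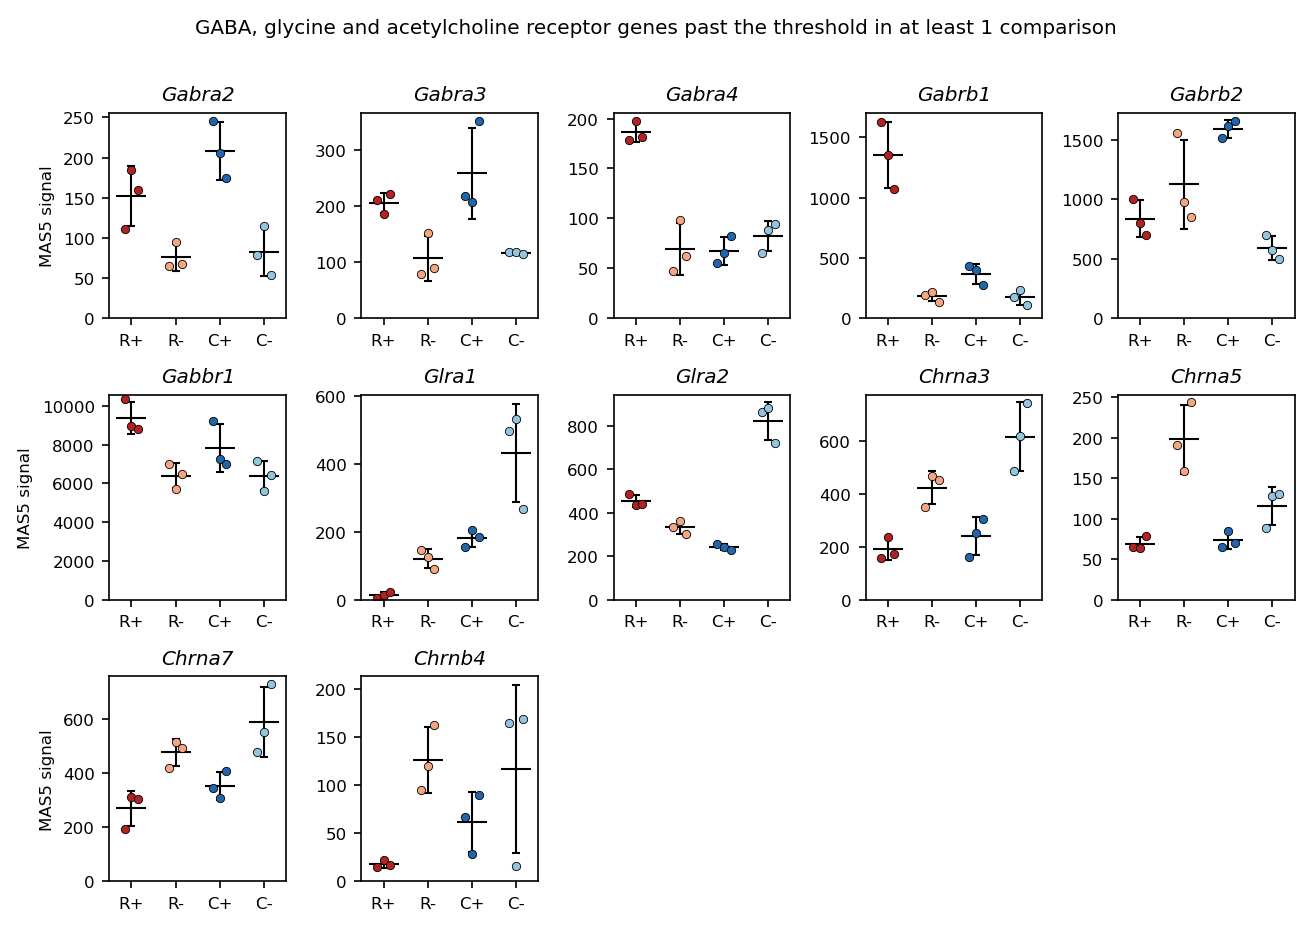
Each panel gives the MAS5 signal (y axis, from 0) of 1 GABA, glycine or acetylcholine receptor gene on every array by group, with the mean as a horizontal bar and the SD as an error bar (n = 3 arrays per group). Gabrb1 stands out in R+ arrays, Gabrb2 in C+ arrays, Glra1 and Glra2 in C- arrays and Chrna5 in R- arrays.

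Glycine receptors contain alpha subunits and the Glrb subunit, which binds the scaffold gephyrin; Glra2 is the alpha subunit of the fetal receptor and Glra1 that of the adult one in spinal cord and brainstem. Glra2 had 258, 243 and 230 in C+ arrays, against 863, 880 and 720 in C- arrays, a difference of -1.71 ± 0.16 (adjusted p = 3.5e-06). It had 484, 434 and 441 in R+ arrays, against 333, 364 and 302 in R- arrays, and that difference of 0.44 ± 0.16 was called with the replicate block alone (adjusted p = 0.106 without it, 0.0417 with it). So the positive cells were below the negative cells on every caudal array and above them on every rostral array. Glra1 had 5, 13 and 24 in R+ arrays, against 146, 126 and 90 in R- arrays, a difference of -2.50 ± 0.39 (adjusted p = 0.000442). It had 155, 205 and 184 in C+ arrays, against 498, 533 and 268 in C- arrays, with -1.16 ± 0.39 called with the block alone (adjusted p = 0.0656 without it, 0.0409 with it). The R+ signals of Glra1 were near the value of 10 added before taking logs, so the size of that fall depends on it. Glrb, measured by a probe set that can share probes with other transcripts, ranged from 229 to 776 and passed no test.

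Nicotinic acetylcholine receptor genes were lower or not called in the positive cells: of 6 tested, 4 were lower and 0 higher in R+ against R- cells, and 2 lower and 0 higher in C+ against C- cells, the same counts as with the replicate block and at an unadjusted limma p under 0.05. Of all genes tested, 7.87% and 7.38% were lower, 12.3% and 12.4% with the block, and 14% and 13.5% at that unadjusted p. The rostral count includes Chrna5 and Chrnb4, which passed the filter only through R- and C- arrays. That favours a lower level in positive cells. Chrna3, the alpha subunit of ganglionic receptors, had 159, 237 and 174 in R+ arrays, against 350, 467 and 452 in R- arrays, and 162, 253 and 306 in C+ arrays, against 487, 616 and 744 in C- arrays. No positive array reached a negative one of the same domain, and the differences were -1.12 ± 0.25 (adjusted p = 0.00819) and -1.35 ± 0.25 (adjusted p = 0.00207). Another Chrna3 probe set gave -1.88 ± 0.29 and -2.28 ± 0.29, past the threshold in both. Its neighbours Chrna5, an accessory subunit, and Chrnb4, the partner of Chrna3 in ganglia, were called in the rostral domain. Chrna5 had 65, 64 and 79 in R+ arrays, against 191, 159 and 244 in R- arrays (-1.38 ± 0.33, adjusted p = 0.0121), and lost the call without R- replicate 3 (0.0764). Chrnb4 had 15, 22 and 17 in R+ arrays, against 95, 120 and 163 in R- arrays (-2.26 ± 0.70, adjusted p = 0.0497). The rostral groups were apart for both, yet the Chrnb4 call was lost without any 1 of 10 of the 12 arrays, all but C+ and C- replicates 2 (adjusted p of 0.0515 to 0.177). With all arrays and the replicate block, the Chrnb4 adjusted p was 0.0186. In the caudal domain Chrna5 had 65, 85 and 70 in C+ and 89, 128 and 130 in C- arrays, Chrnb4 had 67, 28 and 90 in C+ and 165, 16 and 169 in C- arrays, and neither difference passed.

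Chrna7, which forms a calcium-permeable receptor of 1 subunit type, had 195, 310 and 303 in R+ arrays, against 419, 514 and 494 in R- arrays, and 343, 308 and 409 in C+ arrays, against 478, 553 and 730 in C- arrays. The groups were apart in both domains, with -0.82 ± 0.22 (adjusted p = 0.0228) and -0.70 ± 0.22 (adjusted p = 0.0481). The rostral call was lost without R+ replicate 1 (adjusted p = 0.111), R- replicate 2 (0.0834) or R- replicate 3 (0.0829), and the caudal call without any 1 of 10 arrays, all but R+ and C- replicates 1 (adjusted p of 0.0509 to 0.210). With all arrays and the replicate block, the caudal adjusted p was 0.00734. Chrna4 and Chrnb2, which together form the main nicotinic receptor of the brain, passed no test: Chrna4 was at 507 to 816 in R+, 380 to 468 in R-, 314 to 609 in C+ and 244 to 711 in C- arrays, and Chrnb2 at 557 to 1049 over all arrays. Of 7 motor and cholinergic neuron markers 2 were measured, Chat and Isl1, and 1 of them was lower in the positive cells of each domain; they summed to 159 to 258 in R+ against 523 to 693 in R- arrays, and to 215 to 363 in C+ against 702 to 1414 in C- arrays. The 3 measured peripheral sensory neuron markers, of which 3 were lower in R+ than in R- and 2 in C+ than in C- cells, summed to 410 to 572 in R+ against 2404 to 3225 in R- arrays, and to 577 to 898 in C+ against 5046 to 7067 in C- arrays. Isl1 is on both lists and counted in both sums, so the lists are not separate measures of these cell types. The part of these cells in the nicotinic differences was not tested.

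Rostral and caudal positive cells differed in 8 of the 34 tested members. In R+ against C+ cells, 3 were higher and 5 lower, against 2.82% and 4.49% of all genes tested (7.31% in all). With the replicate block 4 were higher and 7 lower (9.56% and 12.3% of all genes, 21.8% in all). Gabrb1, Gabra4 and Glra2 were higher in R+, of which Gabra4 passed the filter only through the R+ arrays, and Gria3, Grik3, Grin2b, Gabrb2 and Glra1 lower. The median member difference was -0.27, and that of all genes -0.05. Grik3 differed by -2.54 ± 0.25 (5.81-fold lower in R+, adjusted p = 1.52e-05) and Glra1 by -3.07 ± 0.39 (adjusted p = 0.000186), and both calls held under every alternative tried. Without R+ replicate 3, the count of lower members was 3. Gabrb1 was higher in R+ cells by 1.86 ± 0.28 (adjusted p = 0.000859), and its probe set that passed the filter only through the R+ arrays, which favours this difference too, gave 2.05 ± 0.44 (adjusted p = 0.0211 over all probe sets). A further Gabrb1 probe set gave 0.67 ± 0.48, short of the threshold.

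Glra2 was higher in R+ than in C+ cells by 0.87 ± 0.16 (adjusted p = 0.00492). Gabra4, favoured here by the filter, was higher by 1.36 ± 0.37 (adjusted p = 0.0406, and 0.0143 with the block). That call was lost without any 1 of 8 arrays, all but R- and C- replicates 1 and 2 (adjusted p of 0.0529 to 0.126). Both genes had R+ arrays above every C+ array. Grin2b was lower in R+ by -1.19 ± 0.25 (adjusted p = 0.0118; 0.0656 without R+ replicate 3), and another probe set gave -0.16 ± 0.50. Gabrb2 was lower by -0.94 ± 0.21 (adjusted p = 0.0166), and lost the call without C+ replicate 2 (0.0660), R+ replicate 3 (0.0914) or C+ replicate 3 (0.0665); its other probe sets gave -0.09 ± 0.42, -0.15 ± 0.39 and -0.56 ± 0.72. With the block, Gabbr1 was higher (0.27 ± 0.14, adjusted p = 0.266 without the block and 0.0346 with it) and Grm4 lower in R+ (-0.71 ± 0.25, 0.0960 and 0.0144). With the array's beta-actin ratio as a covariate the calls of Gria3 (adjusted p = 0.0755), Gabra4 (0.101), Gabrb1 (0.110) and Glra2 (0.194) were lost.

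**Figure D4:**
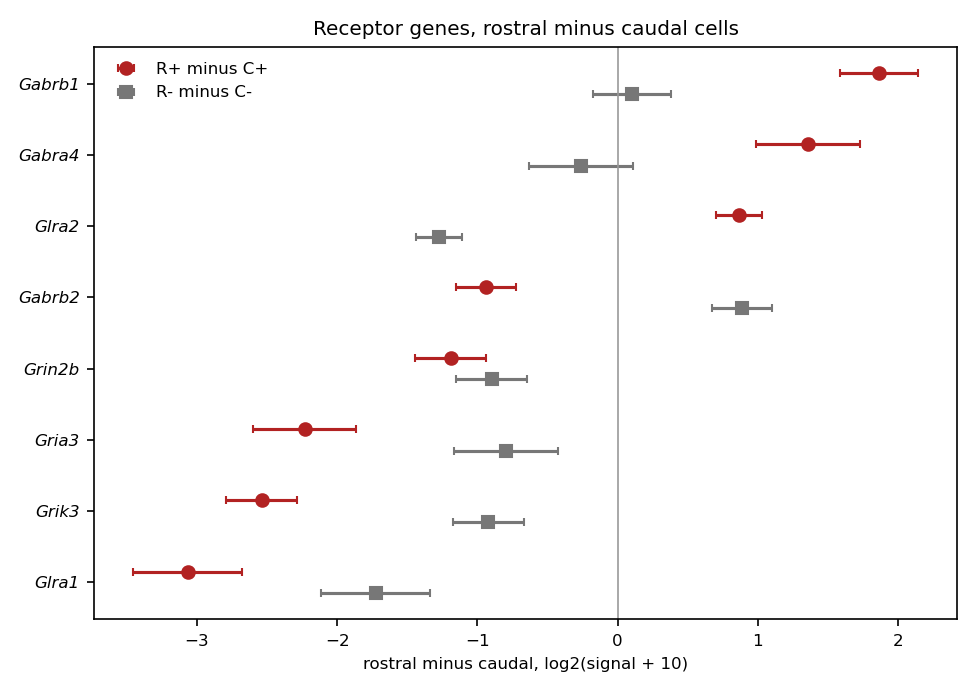
Differences of rostral minus caudal cells on the x axis (log2(signal + 10), bars are standard errors from limma) for the 8 receptor genes called in R+ against C+ or R- against C- cells, with circles for positive and squares for negative cells. Gabrb1 and Gabra4 lie right of 0 for positive cells and near 0 for negative cells, while Glra2 and Gabrb2 lie on opposite sides of 0 for positive and negative cells.

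Glra1, Glra2 and Gabrb2 differed between the negative cells of the domains. In R- against C- cells 1 member was higher and 2 lower, against 1.04% and 1.74% of all genes tested (2.79% in all); with the replicate block 2 were higher and 6 lower (4.49% and 5.72% of all genes, 10.2% in all). Glra2 was lower in R- by -1.27 ± 0.16 (adjusted p = 0.000314) and Glra1 by -1.73 ± 0.39 (adjusted p = 0.0255), while Gabrb2 was higher by 0.89 ± 0.21 (adjusted p = 0.0376). The Glra1 call was lost without R- replicate 1 (adjusted p = 0.0528), C- replicate 1 (0.118), R- replicate 2 (0.0601), C- replicate 2 (0.133) or R- replicate 3 (0.129). The Gabrb2 call was lost without R- replicate 1 (adjusted p = 0.147), R+ replicate 2 (0.0542), R- replicate 2 (0.0547), C+ replicate 2 (0.0602), C- replicate 2 (0.111) or C- replicate 3 (0.174). With the beta-actin ratio as a covariate Glra1 (adjusted p = 0.124) and Gabrb2 (0.337) were not called either. The count of lower members was 4 without C+ replicate 1, and 1 without R- replicate 1, C- replicate 1 or C- replicate 2. The block added Grik2, Grik3, Grin2b and Grm7 as lower and Grm2 as higher. Grm2 passed the filter only through the R- arrays and C- replicate 3, which favours its higher level in R- cells.

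The difference between positive and negative cells itself differed between domains for 4 members. In the test of R+ minus R- against C+ minus C-, 2 members were higher and 2 lower, against 0.467% and 0.677% of all genes tested (1.14% in all), and the counts with the block were the same (1.11% and 1.55% of all genes, 2.65% in all). Glra2 had the strongest test, with 2.14 ± 0.23 (adjusted p = 0.000129), and Gabrb2 followed with -1.83 ± 0.30 (adjusted p = 0.00592). Gabrb1 had 1.76 ± 0.39 (adjusted p = 0.0453) and Grik3 -1.62 ± 0.36 (adjusted p = 0.0410). Glra2 arrays of positive cells lay above those of negative cells rostrally and below them caudally, and Grik3 arrays lay the other way round. Gabrb2 arrays of positive cells lay above those of negative cells caudally and overlapped them rostrally. The Gabrb1 call was lost without any 1 of 10 arrays, all but C+ replicate 1 and C- replicate 3 (adjusted p of 0.0559 to 0.133), and the Grik3 call without any 1 of 8, all but R- and C+ replicates 1, R+ replicate 2 and C- replicate 2 (0.0675 to 0.132). With all arrays and the block, the adjusted p was 0.000650 for Gabrb1 and 1.93e-05 for Grik3. Gria3, Glra1 and Gabra4, called in 1 domain, did not pass this test (adjusted p = 0.409, 0.572 and 0.296).

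Other probe sets of the same genes mostly moved the same way. Of the tested members, 14 had more than 1 probe set that passed the filter, with 22 others in all. For members called in R+ against R- cells, 10 of 10 other probe sets had the same sign and 5 passed the threshold in a fit of all probe sets. Of these 5, 2 had passed the filter only through the group where they were high, a Gabrb1 probe set through R+ and a Chrna5 probe set through R- arrays. Another of the 5, of Grin3a, had passed it only through R- and C- arrays, the negative groups where it was high. A Grik2 and a further Gabrb1 probe set, short of the threshold, had passed it only through R+ and C+ arrays. For those called in C+ against C- cells, 10 of 11 had the same sign and 3 passed, among them the same Grin3a probe set. The exception in sign was a probe set of Gabrb1. Probe sets of 1 gene can lie in different exons or transcript ends, and which transcripts each measures is not analysed here.

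**Figure D5:**
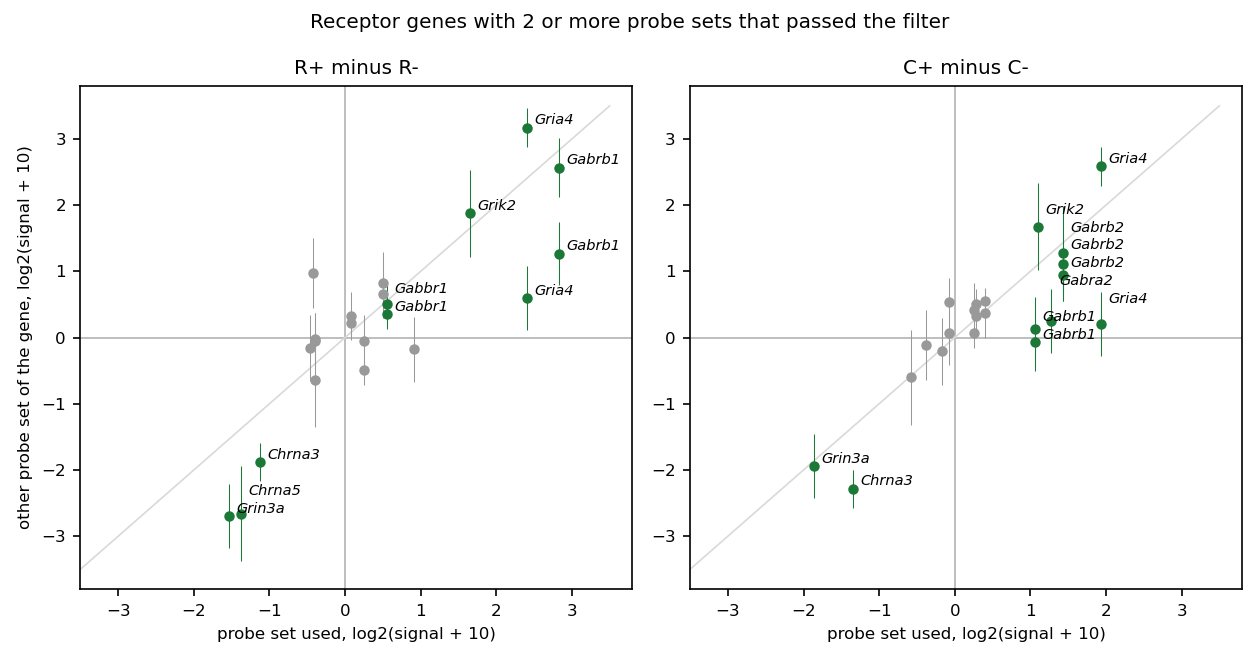
Each point is 1 other probe set of a receptor gene, with the difference of the probe set used on the x axis and that of the other probe set on the y axis (log2(signal + 10), bars are standard errors), for R+ minus R- at left and C+ minus C- at right. Green points belong to genes called in that comparison; all of them at left and all but 1 of Gabrb1 at right share the sign of the probe set used.

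Receptors work with auxiliary subunits and scaffolds, and of 52 such partner genes listed, 44 were measured. In R+ against R- cells 5 were higher and 1 lower, and in C+ against C- cells 3 were higher and 4 lower; with the block these counts were 9 and 4, and 9 and 6. Of all genes tested, 4.34% were higher and 7.87% lower in the rostral comparison and 5.71% and 7.38% in the caudal one, and with the block 8.57% and 12.3%, and 10.5% and 12.4%. Grip2, a PDZ scaffold that binds AMPA receptors, had 687, 968 and 1056 in R+ arrays, against 271, 317 and 224 in R- arrays, and 1245, 1471 and 1442 in C+ arrays, against 435, 478 and 404 in C- arrays. It was higher in both positive populations, by 1.69 ± 0.19 (adjusted p = 2e-05) and 1.64 ± 0.19 (adjusted p = 2.38e-05), as was the AMPA receptor auxiliary subunit Cacng8 (0.59 ± 0.18, adjusted p = 0.0473, and 0.98 ± 0.18, adjusted p = 0.00176). Gsg1l, an auxiliary subunit that slows AMPA receptor recovery, was lower in both, by -3.98 ± 0.65 and -2.67 ± 0.65 (adjusted p = 0.000731 and 0.0128). It had 3, 6 and 74 in R+ arrays, against 256, 479 and 518 in R- arrays, and 45, 24 and 8 in C+ arrays, against 162, 276 and 167 in C- arrays. Gsg1l passed the filter only through R- and C- arrays, which favours both differences. Several of its positive-cell signals lay near or under the value of 10 added before taking logs, so the size of these differences depends on it.

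The GABA-A trafficking partner Plcl1 (1.39 ± 0.33, adjusted p = 0.0103) and the NMDA receptor scaffold Dlg2 (1.15 ± 0.28, adjusted p = 0.0144) were higher in R+ than in R- cells. The AMPA receptor auxiliary subunit Shisa9 passed the filter only through the C+ arrays, which favours a difference there. It was higher in C+ than in C- cells (1.61 ± 0.42, adjusted p = 0.0192). The metabotropic receptor scaffold Homer2 (-1.05 ± 0.26, adjusted p = 0.0129) and the delta receptor ligand Cbln1 (2462, 4362 and 4103 in C+ against 6633, 7805 and 6868 in C- arrays, adjusted p = 0.00294) were lower there. Cbln2, a secreted relative of Cbln1, was higher in R+ than in R- (0.52 ± 0.14, adjusted p = 0.0218) and lower in C+ than in C- cells (-0.62 ± 0.14, adjusted p = 0.00735), and its difference differed between domains (1.14 ± 0.20, adjusted p = 0.00757). With the block, Cbln1 (adjusted p = 0.00213), Cacng7 (0.0237) and Dlg2 (0.0313) were also higher in that test. Between R+ and C+ cells Cbln2 was higher in R+ (0.76 ± 0.14, adjusted p = 0.00423), and Cnih3 (-1.85 ± 0.53, adjusted p = 0.0483) and Dlg1 (-0.87 ± 0.17, adjusted p = 0.00757) were lower. Cnih3 passed the filter only through C+ and C- arrays, which favours its lower level in R+ cells. Between R- and C- cells Dlg2 was lower in R- (-1.49 ± 0.28, adjusted p = 0.00871). With the block, 8 partner genes were higher and 10 lower in R+ than in C+ cells, and 0 were higher and 7 lower in R- than in C- cells, against 9.56% and 12.3%, and 4.49% and 5.72%, of all genes tested. Of 29 further receptor subunit genes outside the list, 5 were measured. None passed limma's test in any of the 5 comparisons, with or without the block, and 0 had an unadjusted p under 0.05.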

How the data were processed

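RNA of the 4 sorted populations was hybridised to 12 one-colour Affymetrix arrays, 3 per group. The deposited values are intensities (MAS5 signal) that the authors computed with MAS5, per the submitters' processing notes, which name no version; the trimmed mean of every array, leaving out 2% at each end, is 500. The number of arrays limits the precision, and detection calls were not used here. Of 45037 probe sets other than controls, 34945 had 1 gene symbol in the platform annotation, 932 several and 9160 none, and those with several or none were left unnamed.

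The filter asked that a probe set exceed 107 (the overall median) on 3 or more arrays; 26061 did, 22030 of them with 1 symbol. Each gene was represented by its kept probe set of highest mean signal, with probe sets marked as cross-hybridising used where no other was kept. Before taking log2, 10 was added to each signal, which is the overall 10th percentile. A linear model with 1 mean per group was fitted to all 12 arrays with limma 3.58.1 in R 4.3.3 (eBayes with a trend, two-sided, Benjamini-Hochberg over 12845 genes, threshold 0.05), and 5 comparisons were made: positive against negative cells in each domain, rostral against caudal cells among positives and among negatives, and the difference of the differences. The fit was tested on simulated data with known changes. Levels of different probe sets were not compared with each other.

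The labels give groups the same replicate numbers. Deviations from the group means correlated at 0.120 to 0.524 in the 18 same-numbered pairs of arrays, all over 0.1, and at -0.402 to 0.275 in the other 36 pairs, so the numbers pair the samples. A fit with the replicate number as a block is given where it changes a call, and for calls lost without any 1 of 8 or 10 arrays. The fits leaving out arrays had no block. Standard errors are those of the fit without the block unless stated. All members past the threshold in a comparison are named with their arrays' values, and of other lists up to 5 genes per direction past the threshold. The members and lists were chosen with earlier results of these data known. Alternatives were other offsets, filters, scalings, probe set rules and variance models, the beta-actin ratio as a covariate, fits of the compared groups alone, and leaving out arrays. Promoter sequences and gene order are from RefSeq tables (GRCm38.p6).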

Additional observations from a re-analysis of the deposited data

Results flagged for a closer look

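For 4 receptor genes the difference between YFP-positive and YFP-negative cells differed between the rostral and caudal domains by a test of that difference (limma, adjusted over all genes tested). Glra2 had 2.14 ± 0.23 (SE, log2(signal + 10), adjusted p = 0.000129): R+ minus R- was 0.44 and C+ minus C- was -1.71, and the groups of each domain did not overlap. Gabrb2 had -1.83 ± 0.30 (adjusted p = 0.00592), from -0.40 in R+ minus R- and 1.43 in C+ minus C-; its other probe sets did not pass the test. Gabrb1 had 1.76 ± 0.39 (adjusted p = 0.0453), from 2.83 in R+ minus R- and 1.07 in C+ minus C-. The other probe sets of Gabrb1 had the same sign and did not pass the test. Grik3 had -1.62 ± 0.36 (adjusted p = 0.0410), from -0.88 in R+ minus R- and 0.73 in C+ minus C-. The caudal arrays had beta-actin 3'/5' ratios of 4.52 to 7.69 and the rostral arrays 2.64 to 4.39, and the part of RNA integrity in these results was not tested beyond the covariate fit.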

How the results depend on the processing

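Of the 39 calls on members over the 5 comparisons, 11 were kept under every alternative tried and 20 under every omission of 1 array; over 1117 pairs of call and alternative, 912 kept the call, 204 lost it with the same sign and 1 changed sign. Calls kept throughout were Gria3, Gria4, Gabrb1 and Glra1 in R+ against R-, Gria4, Glra2 and Chrna3 in C+ against C-, Grik3 and Glra1 in R+ against C+, Glra2 in R- against C- and Glra2 in the difference of differences. Another probe set reversed Gabrb1 in C+ against C- cells (-0.068) and the uncalled Gabbr1 in R+ against C+ cells (-0.084). The cause of each change was not tested.

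With the replicate block, which uses the pairing of the arrays, 8 members were higher in R+ than in R- cells and 10 in C+ than in C- cells, and between R- and C- cells 2 were higher and 6 lower; it ended no call, as the block's counts of 19, 16, 11, 8 and 4 called members hold the 13, 11, 8, 3 and 4 of the fit without it. With another probe set, members higher numbered 3 in R+ against R-, 2 in C+ against C-, 0 in R- against C- cells and 1 in the difference of differences, where 0 were lower. With the mean of probe sets, 3 were higher in C+ against C-, 3 lower in R+ against C+, 0 higher in R- against C- and 0 lower in the difference of differences. With the compared groups alone, 3 were higher in C+ than in C- cells, and 0 were higher in R- than in C- cells. With the beta-actin ratio as a covariate, 0 were higher in R+ against C+ and 1 lower in R- against C-. With median scaling and without the variance trend, 0 were higher in R- against C- and 1 in the difference of differences, and with an offset of 1, no filter or quantile normalization 1 was higher there. An offset of 1 left 1 lower in R- against C-, and quantile normalization and no trend 1 lower in the difference of differences. Apart from the block, the share of all genes called under these alternatives is not given beside the counts. Changes in these counts cannot be told apart from changes over all genes.

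Leaving out arrays gave 2 to 5 members higher and 3 to 9 lower in R+ against R-, 2 to 8 and 3 to 6 in C+ against C-, 1 to 3 and 2 to 6 in R+ against C+, 0 to 1 and 1 to 4 in R- against C-, and 1 to 2 and 0 to 2 in the difference of differences. These counts too are given without the share of all genes called, which also changes with the arrays used. Median scaling moved the share of called genes that were higher to 52.5% for C+ over C- and to 51.6% for R- over C-, from the 43.6% and 37.4% of the values as deposited. Signals under the median of 107 limit Gria3, Grm2, Grm3, Grm5, Gabra2, Gabra4, Gabra5, Gabrg1, Glra1, Chrna5 and Chrnb4, which had at least 1 group wholly under it and whose differences depend on the offset.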
